A study of Mus musculus with 6 samples.

Results

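The blood-retina barrier is formed by endothelial cells of the retinal vessels and by the retinal pigment epithelium, and 10 genes of that barrier were followed here across the cell types of the mouse retina. They are Bsg, Slc16a1, Slco1a4, Abcb1a, Abcg2, Slc7a1, Slc7a5, Mfsd2a, Slc39a10 and Spock2, matched by symbol among the 31053 genes in the deposited matrices. The genes were chosen with their difference between groups in endothelial cells already known, so that their values in endothelial cells are given as a description, without a test. Tests were made in the other cell types.

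Single cells came from mouse retinas at postnatal day 17. The OIR group (oxygen-induced retinopathy) had been kept in 75% oxygen from day 7 to day 12, when the immature vessels regress, followed by 5 days in normal air, when the retina becomes hypoxic and new vessels grow. The control (Ctrl) group was kept in normal air to the same age, which the labels call adult. The labels give neither strain nor genotype for either group. There were 3 samples per group, and the retinas of 2 mice were pooled for each.

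Tight junctions seal the space between endothelial cells, so that nutrients must cross through carriers while efflux pumps return drugs and toxins to the blood. Basigin, the product of Bsg, is a membrane glycoprotein that escorts the lactate carriers MCT1 and MCT4 to the cell surface. Slc16a1 encodes MCT1, which moves lactate, pyruvate and ketone bodies together with a proton. Slco1a4 encodes a carrier of organic anions, and Abcb1a (P-glycoprotein) and Abcg2 encode ATP-driven efflux pumps. Slc7a1 carries arginine and lysine, and Slc7a5 carries large neutral amino acids in a complex with the heavy chain from Slc3a2. Mfsd2a takes up lysophospholipids that carry docosahexaenoic acid and restrains vesicle transport through endothelial cells. Slc39a10 imports zinc. Spock2 differs in kind, since it encodes a secreted proteoglycan, testican-2, and not a carrier.

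In the GRCm38 annotation, Bsg (ENSMUSG00000023175) lies on chromosome 10 from 79704491 to 79711969 on the plus strand, and Spock2 lies on the same chromosome from 60106219 to 60135198. Slc16a1 lies on chromosome 3 from 104638668 to 104658462. Abcb1a (chromosome 5, 8660077 to 8748575) and Slc7a1 (chromosome 5, 148327410 to 148399904) share a chromosome, as do Abcg2 (chromosome 6, 58584523 to 58695676) and Slco1a4 (chromosome 6, 141805440 to 141856199). Slc7a5 lies on chromosome 8 from 121881150 to 121907694, Mfsd2a on chromosome 4 from 122946850 to 122961188 and Slc39a10 on chromosome 1 from 46807544 to 46892852. Bsg has 4 annotated protein-coding transcripts with 3 different 3' ends. The libraries count molecules at the 3' end of transcripts, and the counts are summed over a gene, so that the forms of basigin cannot be told apart.

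RefSeq promoter windows on build GRCm38.p6 were at hand for 8 of the 10 genes, not for Bsg and Slc7a5. Several genes have more than 1 start, which gave 12 windows. Each was taken from 250 to 51 bases before the start, 200 bases long, and searched on both strands for ACGTG, the core of the element bound by hypoxia-inducible factors, which is also contained in the E-box CACGTG. The windows of Slc16a1, Mfsd2a and Spock2 held ACGTG, which 12.9% of all 32851 RefSeq windows of this length also held. These 3 windows are shown because they hold the letters and every OIR value of the genes lay below every control value in endothelial cells. For Mfsd2a, OIR replicates 2 and 3 cannot be set apart from the controls at their depth. ACGTG on either strand is in capitals. The Slc16a1 window is chr3:104638414-104638613 on the plus strand, the Mfsd2a window is chr4:122961239-122961438 on the minus strand and the Spock2 window is chr10:60106007-60106206 on the plus strand.
Slc16a1: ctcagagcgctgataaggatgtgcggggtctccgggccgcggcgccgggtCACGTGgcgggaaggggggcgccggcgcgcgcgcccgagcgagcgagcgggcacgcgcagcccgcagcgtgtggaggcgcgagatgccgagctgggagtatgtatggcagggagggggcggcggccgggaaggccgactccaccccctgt
Mfsd2a: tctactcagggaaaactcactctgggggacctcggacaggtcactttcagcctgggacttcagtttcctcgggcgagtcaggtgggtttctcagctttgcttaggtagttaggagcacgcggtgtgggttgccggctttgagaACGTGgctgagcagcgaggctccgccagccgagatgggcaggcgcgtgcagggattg
Spock2: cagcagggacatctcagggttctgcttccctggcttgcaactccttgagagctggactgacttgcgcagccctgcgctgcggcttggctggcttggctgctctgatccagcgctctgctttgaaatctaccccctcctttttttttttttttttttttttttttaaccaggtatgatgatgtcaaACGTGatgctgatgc

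The Slc16a1 window was the richest in G and C of the 3, at 76.0% with 30 CpG pairs, and it held the letters once as the palindrome CACGTG, which 4.34% of all windows held. The Mfsd2a window was 60.0% G and C with 12 CpG pairs, and the Spock2 window 49.5% with 5. The windows of Slco1a4 and Abcb1a held 0 CpG pairs and no ACGTG. The Abcb1a window, chr5:8566841-8567040 on the plus strand, lies far upstream of the annotated gene start at 8660077. It does not describe the bases before that start. A match of letters is a description of the window and not evidence of binding.

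After the filter stated by the study, 38569 of 47631 barcodes were kept. Before that filter, samples held between 15788524 and 42606878 UMIs (unique molecular identifiers, 1 per captured RNA molecule) over all their barcodes. Clusters were named from marker genes, so that endothelial cells below are endothelial-like cells, and likewise for the other types. Replicate 1 of each group was deeper, with a median of 3958 and 4850 UMIs per cell against 1449.5 to 2354 in the other samples. Control replicates 2 and 3 carried RNA of the female gene Xist and the other 4 samples RNA of Y-linked genes. Between 9 and 34 barcodes were shared by any 2 samples. The labels name retinal endothelial cells as the tissue, but only 165 control cells and 31 OIR cells fell in the endothelial cluster. Control replicates 1, 2 and 3 gave 145, 4 and 16 of these cells, with 1125746, 57595 and 58197 UMIs. OIR replicates 1, 2 and 3 gave 25, 2 and 4 cells, with 206217, 8480 and 5362 UMIs. OIR replicate 3 went against the endothelial label, since 5 of the 9 endothelial markers (Cdh5, Kdr, Flt1, Tie1 and Esam) were at 0 in its 4 cells. The 9 markers summed to 1119 CPM there (counts scaled to the same total in every sample, with the usual base of 1e6), against 8641 and 13330 CPM in the other OIR samples and 12150 to 15310 CPM in the controls, and mural cell markers summed to 1678 CPM. OIR values are therefore given for every sample, with the mean also without OIR replicate 3.

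In the endothelial cells of control retinas, Bsg made up 15080, 16810 and 13350 CPM in replicates 1, 2 and 3. In OIR replicates 1, 2 and 3 it made up 1144, 472 and 746 CPM. The lowest control value was 11.7 times the highest OIR value, and the groups did not overlap. The mean was 15080 ± 1728 CPM (SD, n = 3) in controls and 787 ± 338 CPM (SD, n = 3) in OIR, or 19.2 times higher in controls and 18.7 times without OIR replicate 3. The OIR 2 and OIR 3 values rest on 4 Bsg UMIs each, with 95% Poisson intervals of 128.5 to 1208 and 203 to 1910 CPM, which cover counting error only. OIR replicate 1 rests on 236 UMIs, with an interval of 1003 to 1300 CPM, and control replicate 1 on 16974 UMIs, with an interval of 14850 to 15310 CPM. Both are the deepest samples of their group and both carry Y-linked RNA, and between them Bsg differed 13.2-fold while the 9 endothelial markers together differed 1.77-fold. Markers of Mueller glia, which also hold Bsg and Slc16a1, moved with the groups in these cells. The 7 markers summed to 2004, 538 and 601 CPM in the control and 475, 118 and 187 CPM in the OIR endothelial cells. The 5 red blood cell markers reached 12160 CPM in control replicate 1 and at most 9.70 CPM in the other samples. The part of either list in the endothelial differences was not tested.

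Together the 10 genes supplied 2.34%, 2.43% and 1.88% of all endothelial UMIs in the control samples. The same share was 0.262%, 0.425% and 0.112% in the OIR samples. A median of 9, 9.5 and 6.5 of the 10 genes was detected per endothelial cell in control replicates 1, 2 and 3, and a median of 4, 4 and 1 in the OIR replicates. Depth per cell also differed, with a median of 6880 UMIs per endothelial cell in the control group and 3016 in the OIR group. With cells thinned to 1000 UMIs, which left out 12 control and 5 OIR cells, Bsg was found in 98.0% of control and 50% of OIR endothelial cells, against 98.8% and 80.6% unthinned.

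**Figure D1:**
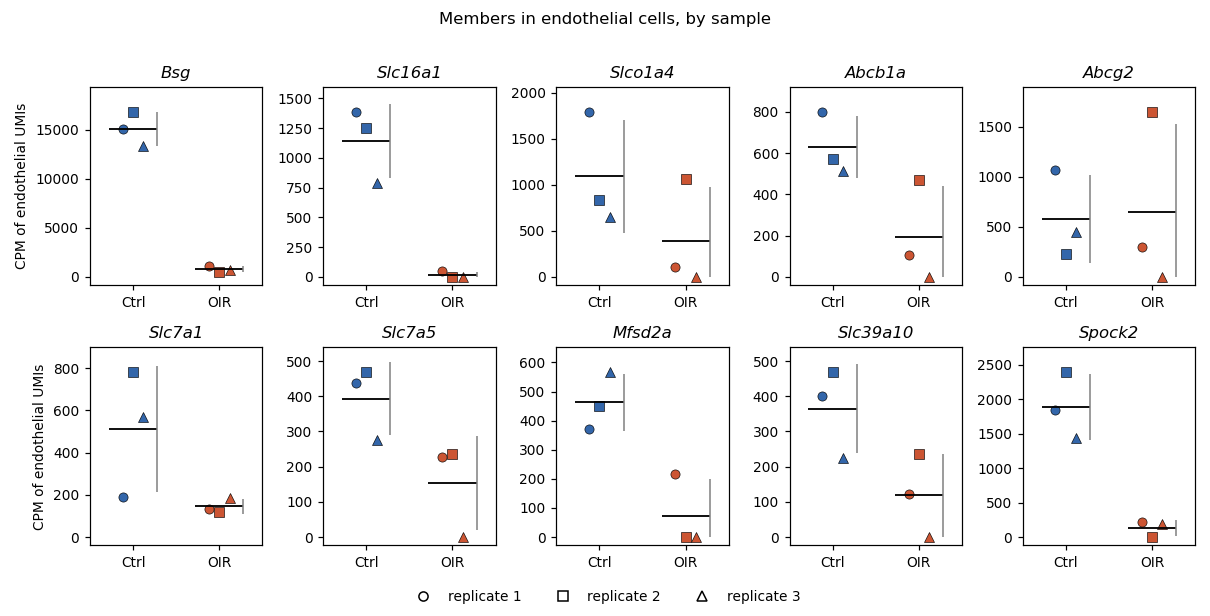
Level of each of the 10 genes in endothelial cells, as CPM of the endothelial UMIs on linear axes. Points are samples (circle, square and triangle for replicates 1, 2 and 3), horizontal lines are group means and grey bars reach 1 SD either way, stopped at 0. Bsg, Slc16a1 and Spock2 part the groups most widely, while OIR replicate 2 lies within the control range for Slco1a4 and above it for Abcg2.

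Slc16a1, a lactate carrier that basigin escorts, was detected at 1388, 1250 and 790 CPM in endothelial cells of control replicates 1, 2 and 3. It was at 48.5 CPM in OIR replicate 1, on 10 UMIs, and at 0 UMIs in OIR replicates 2 and 3. A count of 0 allows up to 354 CPM in OIR replicate 2 and 560 CPM in OIR replicate 3, which are both below the lowest control. Between the replicate 1 samples the level differed 28.6-fold.

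Spock2 was at 1846, 2396 and 1443 CPM in the control samples and at 218, 0 and 187 CPM in the OIR samples. The lowest control was 6.61 times the highest OIR value. The 187 CPM of OIR replicate 3 rest on 1 UMI, and the 0 of OIR replicate 2 allows up to 354 CPM.

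Mfsd2a, the lysophospholipid carrier, was at 370, 451 and 567 CPM in controls and at 218 CPM in OIR replicate 1, with 0 UMIs in the other OIR samples. The groups did not overlap, but the exact 95% intervals of the zeros reach 435 CPM in OIR replicate 2 and 688 CPM in OIR replicate 3, above the lowest control, so that neither sample can be set apart from the controls at its depth. Between the replicate 1 samples Mfsd2a differed 1.70-fold, close to the 1.77-fold of the endothelial markers.

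The efflux pump Abcb1a was at 800, 573 and 516 CPM in controls and at 107, 472 and 0 CPM in OIR. The groups did not overlap, although the highest OIR value, on 4 UMIs, was close to the lowest control. Its near copy Abcb1b was at 0 in the endothelial cells of all 6 samples. The other pump, Abcg2, overlapped between the groups, at 1070, 226 and 447 CPM in controls and 296, 1651 and 0 CPM in OIR. The 1651 CPM of OIR replicate 2 rest on 14 UMIs.

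Slco1a4 also overlapped, at 1793, 833 and 653 CPM in controls and 107, 1061 and 0 CPM in OIR. OIR replicate 2 was the exception here as for Abcg2, and its value rests on 9 UMIs in 2 cells. Between the deeper replicate 1 samples Slco1a4 differed 16.8-fold.

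Of the amino acid carriers, Slc7a1 was at 191, 781 and 567 CPM in controls and 131, 118 and 187 CPM in OIR, where control replicate 1 lay beside the OIR samples. Slc7a5 was at 437, 469 and 275 CPM in controls and 228, 236 and 0 CPM in OIR. The lowest control was 1.02 times the highest OIR value for Slc7a1 and 1.17 times for Slc7a5. Slc39a10 overlapped, at 401, 469 and 223 CPM in controls and 121, 236 and 0 CPM in OIR.

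As a ratio of means, control over OIR, Slc16a1 stood at 70.7 (47.1 without OIR replicate 3), Spock2 at 14.1 (17.4), Mfsd2a at 6.37 (4.24) and Slc7a1 at 3.54 (4.13). The ratios were 3.27 (2.18) for Abcb1a, 3.06 (2.04) for Slc39a10, 2.81 (1.87) for Slco1a4, 2.55 (1.70) for Slc7a5 and 0.895 (0.597) for Abcg2. The Abcg2 and Slco1a4 ratios rest on the 2 cells of OIR replicate 2. For Abcg2 the fitted log2 fold change was -0.12 with all samples and -1.37 without that replicate, and for Slco1a4 it was -1.96 and -3.56. OIR values thus lay below all control values for 7 of the 10 genes and above them for 0, beside 9.07% of the 992 genes that passed the count filter in endothelial cells with OIR below all controls and 5.95% with OIR above. By the edgeR rule used for the other types, 0.197% of 1017 genes were called higher and 0.295% lower in endothelial cells. The 3 called lower were Bsg, Slc16a1 and Spock2 themselves, and 1 of the 2 called higher was Plvap. These shares are therefore no background apart from the genes named here. Nothing is read from these calls or from the count of 7, since the 10 genes were chosen on this contrast. In OIR replicates 2 and 3 the upper Poisson limits reached 1208 and 688 CPM for Abcb1a and 657 and 1039 CPM for Slc7a1. For Slc7a5 they reached 852 and 688 CPM. These limits lie above the lowest control of each gene, as for Mfsd2a. For these genes neither sample can be set apart from the controls at its depth. For Bsg, Slc16a1 and Spock2 the limits lie below the lowest control. The 3 genes whose groups overlapped were Slco1a4, Abcg2 and Slc39a10, and leaving out OIR replicate 3 left the same 7 apart. Plvap, which forms the diaphragms of fenestrae and is a mark of leaky vessels, went the other way, at 179, 472 and 0 CPM in OIR endothelial cells and 0 UMIs in all controls. The 6 markers of choroidal (fenestrated) endothelium, Plvap included, summed to 1110, 2358 and 559.5 CPM in OIR and 270, 642 and 430 CPM in controls. Their part in the difference of the 10 genes was not tested.

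The values depend on how endothelial cells are chosen. Taking every cell with at least 3 of the 9 endothelial markers gave 402 OIR and 360 control cells, but 92.3% of the OIR and 49.7% of the control cells of that choice lay in Mueller glia clusters. There the fitted log2 fold change of Bsg was -0.23 and that of Slc16a1 -0.65, against -4.27 and -4.83 in the endothelial cluster. Only 4.98% of the OIR cells of that choice, but 43.3% of the control cells, lay in the endothelial cluster. Values by that choice therefore do not compare like cells, and level and cell mix cannot be told apart there. Spock2, which Mueller glia hold at low level, was at -5.42 by that choice and at -3.52 in the cluster. Keeping the endothelial cells with at least 1 Cldn5 UMI gave -4.20 for Bsg.

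Of the other genes of the barrier, 38 in 8 lists, 9 had every OIR value below every control value in endothelial cells and 0 the reverse. Of the 992 genes that passed the count filter, 9.07% had OIR below all controls and 5.95% above. The 38 were not held to that filter, and some had 0 UMIs in endothelial cells. They were also chosen with earlier results of these data known, so that nothing is read from the count. Slco1c1, a thyroxine carrier and the highest of the organic anion list in controls, was at 366, 121.5 and 275 CPM in controls and 33.9, 0 and 0 CPM in OIR. The glucose carrier Slc2a1 overlapped, at 4677, 2570 and 2371 CPM in controls and 1818, 5189 and 0 CPM in OIR. The taurine carrier Slc6a6, the highest of the amino acid list, was detected in all OIR samples, at 776, 1651 and 746 CPM, against 1108, 1997 and 1100 CPM. Among the pumps Abcc4 was highest and did not overlap, at 237, 86.8 and 68.7 CPM in controls and 38.8, 0 and 0 CPM in OIR. Tfrc, the transferrin receptor, led the zinc and iron list with 80.8, 312.5 and 464 CPM in controls against 38.8, 0 and 0 CPM. The zeros of Slco1c1, Abcc4 and Tfrc allow up to 354 CPM in OIR replicate 2 and 560 CPM in OIR replicate 3. These limits lie above the lowest control of each gene, so that neither sample can be set apart from the controls at its depth. Control replicates 2 and 3 of Abcc4 rest on 5 and 4 UMIs. Sgms1, a sphingomyelin synthase, led the junction and vesicle list and overlapped, and so did Nptn, a relative of basigin. Neither Spock1 nor Spock3, the other testicans, had a UMI in endothelial cells.

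Across the cell types of control retinas, each of the 10 genes had its highest mean CPM in endothelial cells. Since the genes were chosen for this pattern, the order is a description. For 9 of them the endothelial range stood apart from that of the next type, and for Slc16a1 it overlapped with the pigment epithelium. By the share of cells with a UMI, 9 of the 10 were highest in endothelial cells, since all 26 control astrocytes had a Bsg UMI at a median depth of 14970 UMIs. After thinning to 1000 UMIs, 98.0% of endothelial cells and 73.1% of astrocytes did, but Slc16a1 was then found in 58.3% of pigment epithelial and 56.9% of endothelial cells, so that 9 genes were again highest in endothelial cells.

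**Figure D2:**
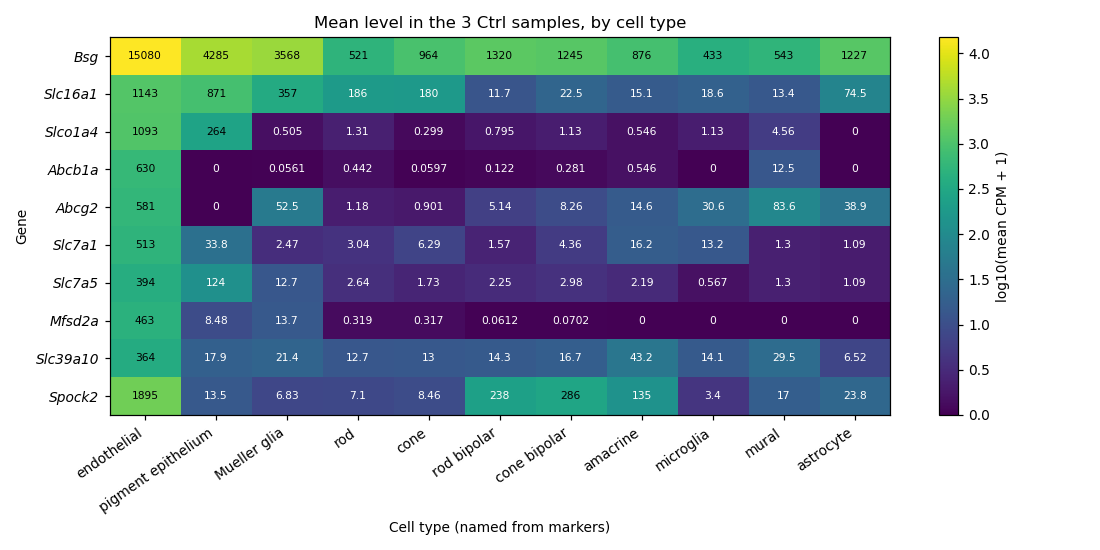
Mean CPM in the 3 control samples for each gene (rows) and cell type (columns). Colour is log10(mean CPM + 1) and the number in each field is the mean CPM. The endothelial column is the highest of every row, Bsg and Slc16a1 reach most other types, and Abcb1a, Mfsd2a and Slco1a4 are near 0 in neurons.

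Bsg was the most widely detected. After endothelial cells, its control mean was 4285 CPM in pigment epithelium (range 2950 to 5747) and 3568 CPM in Mueller glia (3070 to 4169), which overlapped. Rod bipolar cells followed at 1320 CPM, then cone bipolar cells at 1245, astrocytes at 1227, cones at 963.5 and amacrine cells at 876 CPM, where each overlapped with its neighbour in the order. Mural cells (543 CPM), rods (521 CPM) and microglia (433 CPM) were lowest and overlapped. In OIR endothelial cells Bsg lay at 472 to 1144 CPM, a range that holds the control means of mural cells, rods, amacrine cells and cones.

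**Figure D3:**
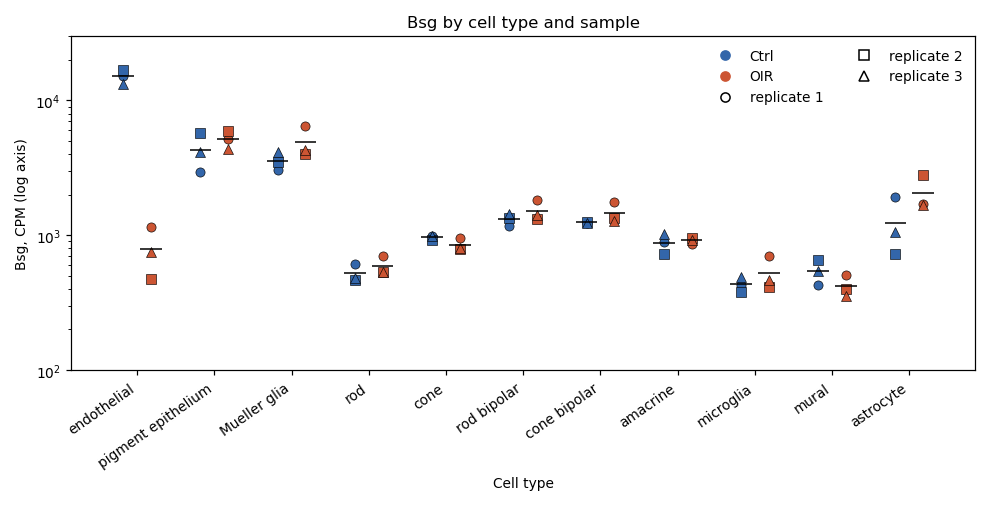
Bsg in every cell type and sample on a log axis of CPM, with control samples in blue, OIR samples in orange, symbols for replicates and lines for group means. Endothelial cells are the type in which the groups lie far apart, at 13350 to 16810 CPM in controls and 472 to 1144 CPM in OIR.

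Slc16a1 followed Bsg in part. Its control mean was 871 CPM in pigment epithelium (765 to 1082), 357 CPM in Mueller glia (285.5 to 396), 186 CPM in rods and 180 CPM in cones, followed by astrocytes at 74.5 CPM. In bipolar cells, amacrine cells, mural cells and microglia it was between 11.7 and 22.5 CPM. Rods and cones overlapped, and pigment epithelium and Mueller glia each stood apart from the next type.

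Slco1a4 was found in endothelial cells and pigment epithelium, where it averaged 264 CPM (120 to 352), and at most at 13.7 CPM in any control sample elsewhere. A Slco1a4 UMI was found in 89.1% of control endothelial cells (median depth 6880 UMIs), in 41.7% of pigment epithelial cells (median depth 1958 UMIs) and in 0.163% of rods (median depth 1594 UMIs), and the last can be read as background. Abcb1a was at 0 in all pigment epithelial cells and microglia of both groups, and outside endothelial and mural cells its control mean was at most 0.547 CPM. Abcg2 was next highest in mural cells (83.6 CPM) and Mueller glia (52.5 CPM).

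Slc7a5 averaged 124 CPM in pigment epithelium and 12.7 CPM in Mueller glia, and Slc7a1 averaged 33.8 CPM in pigment epithelium, followed by amacrine cells at 16.2 CPM. Mfsd2a was found at 13.7 CPM in Mueller glia (6.67 to 24.6) and 8.48 CPM in pigment epithelium and was below 1 CPM in rods, cones and bipolar cells. Slc39a10 was even outside endothelial cells, from 6.52 CPM in astrocytes to 43.2 CPM in amacrine cells. Spock2 was the neuronal one of the set, at 286 CPM in cone bipolar cells (261 to 319), 238 CPM in rod bipolar cells (229.5 to 252) and 135 CPM in amacrine cells (88.6 to 173), 3 levels whose ranges did not overlap.

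Genes were also ranked by how closely their mean log2(CPM + 1) followed that of Bsg over the 11 named cell types, among 7894 genes that reached 50 CPM in at least 1 type. The closest were Slc2a1 (Pearson r = 0.889), Gsta4 (0.884), Mansc1 (0.876), Cyp2j6 (0.865) and Enpp2 (0.843). Of the set, Slc7a5 was 10th (0.804), Mfsd2a 12th (0.797), Slco1a4 102nd (0.632) and Slc16a1 112th (0.621). The other members ranked far lower, with Slc7a1 480th (0.438), Abcb1a 1342nd (0.2475), Spock2 1433rd (0.229), Slc39a10 2095th (0.133) and Abcg2 2165th (0.125). Mansc1 and Mfsd2a reached 50 CPM through endothelial cells alone, with at most 43.7 and 42.8 CPM in any sample of another type. The same held for Abcb1a, with at most 36.8 CPM elsewhere. By mean level it also held for Slc7a1 and Slc39a10. Their next highest types had OIR and control means of 29.2 and 33.8 CPM (Slc7a1, pigment epithelium) and 48.1 and 43.2 CPM (Slc39a10, amacrine cells). The endothelial median of Mansc1 was 19.7 CPM. Its highest endothelial value, 235.8 CPM, is the level of 2 UMIs in OIR replicate 2, so that its rank rests on few molecules. The 11 points share libraries and differ in depth, and OIR and control samples were averaged. The median of Slc2a1 over the 6 samples was 2470 CPM in endothelial cells, 1190 CPM in pigment epithelium and 458.5 CPM in Mueller glia, and it was 109 CPM in rods and 68.0 CPM in cones.

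Whether the genes also differed between the groups outside the endothelium was tested in the 8 types that every sample held in 10 or more cells. Counts were summed per sample, 3 OIR samples were compared with 3 controls by edgeR's quasi-likelihood test over all genes of a type, and a call needed both an adjusted p (Benjamini-Hochberg) under 0.05 and a log2 fold change beyond 0.25 in either direction. Of the 80 pairs of gene and cell type, 77 could be fitted and 35 passed the filter on low counts. Only 1 pair was called, Spock2 in cones, and 12 of the 77 had an unadjusted p under 0.05. Among all genes tested, that held for 2047 of 11456 in rods, 1061 of 9380 in cones and 1843 of 11685 in Mueller glia. It held for 1344 of 9342 in rod bipolar cells, 1257 of 10325 in cone bipolar cells and 215 of 3686 in amacrine cells. In microglia it held for 283 of 3418 and in pigment epithelium for 84 of 1853. In rods 1.52% of all genes tested were called higher and 0.995% lower in OIR, and in cones 0.832% and 0.426%. The same shares were 1.69% and 1.16% in Mueller glia, 1.27% and 1.13% in rod bipolar cells, 0.581% and 0.349% in cone bipolar cells, 0.0543% and 0% in amacrine cells, 0.146% and 0.0293% in microglia, and 0% and 0.054% in pigment epithelium.

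Groups without overlap were counted in the same types. Shares in brackets are of the genes that passed the count filter, while the counts are of all 10 members. OIR samples lay above all controls for 2 of the 10 genes in rods (22.6%), 2 in cones (10.8%), 2 in cone bipolar cells (10.9%) and 1 in Mueller glia (14.2%). The count was 0 in rod bipolar cells (11.5%), amacrine cells (4.64%), microglia (5.82%) and pigment epithelium (6.12%). OIR samples lay below all controls for 2 genes in pigment epithelium (3.33%) and 1 in microglia (8.03%). That count was 0 in rods (4.53%), cones (6.04%), Mueller glia (6.6%), rod bipolar cells (7.7%), cone bipolar cells (6.69%) and amacrine cells (7.51%). Only 3 members in pigment epithelium and 1 in microglia passed the filter. Slc7a5 in pigment epithelium and Slc7a1 in microglia were under it, so that these counts and shares are not over like sets.

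Spock2 rose in cones. It was at 10.8, 6.51 and 8.14 CPM in control cones and 14.9, 30.1 and 27.1 CPM in OIR cones, and the groups did not overlap. The log2 fold change was 1.28 (SE 0.30, adjusted p = 0.0381), and adjusted p ranged from 0.000915 to 0.184 over 15 alternatives, 8 of which gave the call. The call was lost without control replicate 2 or 3 or OIR replicate 2 or 3, with DESeq2 (adjusted p = 0.0563), with a term for sex (0.174) and when clustering left out the 10 genes (0.0649). In rods Spock2 was at 13.1, 3.64 and 4.58 CPM in controls and 16.6, 18.7 and 18.1 CPM in OIR, also without overlap. There the log2 fold change was 1.25 (SE 0.39, adjusted p = 0.134), and with the replicate number as a block it was called (adjusted p = 0.0166). Over the 15 alternatives adjusted p in rods ranged from 3.53e-05 to 0.630 and the log2 fold change from 0.28 to 1.95. Of these alternatives, 5 gave the call. Cone bipolar markers, which mark a type that holds more Spock2, moved with the groups in cones. The 6 markers summed to 104, 121 and 100.2 CPM in OIR cones and 84.7, 69.8 and 60.2 CPM in control cones, and their part in the result was not tested. Rod bipolar and amacrine cells also hold more Spock2, and the sums of their lists overlapped in cones. The rod bipolar list was at 38.7 to 70.2 CPM in OIR and 52.1 to 62.3 CPM in control cones. The amacrine list was at 14.9 to 25.3 CPM and 16.5 to 18.9 CPM. In rods the sums of the cone bipolar list overlapped, at 16.8 to 40.9 CPM and 9.52 to 54.5 CPM. In the bipolar cells themselves Spock2 had log2 fold changes of 0.13 (rod bipolar, SE 0.13) and -0.12 (cone bipolar, SE 0.13).

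Slc7a1, the arginine carrier, was low but detected in rods, at 5.43, 1.76 and 1.92 CPM in controls and 5.98, 7.36 and 9.97 CPM in OIR. The log2 fold change was 1.29 (SE 0.42, adjusted p = 0.147), called with the replicate block (adjusted p = 0.0397) and ranging in adjusted p from 0.000444 to 0.707 over the alternatives. OIR values of Slc7a1 lay above all controls in rods, cones, Mueller glia and cone bipolar cells. They lay below all controls in microglia, where the OIR samples held 4, 0 and 0 UMIs of Slc7a1.

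Bsg did not pass the test in any of the 8 types. In Mueller glia it was at 3070, 3467 and 4169 CPM in controls and 6417, 4014 and 4277 CPM in OIR, with a log2 fold change of 0.40 (SE 0.25, adjusted p = 0.485), and the groups overlapped. Most control Mueller glia (60.2%) lay in 1 cluster and most OIR Mueller glia (51%) in another. In pigment epithelium Bsg was at 2950, 5747 and 4157 CPM in controls and 5195, 5944 and 4385 CPM in OIR, with a log2 fold change of 0.24 (SE 0.36). In rods and cones the log2 fold changes were 0.02 (SE 0.18) and -0.23 (SE 0.15). In cone bipolar cells all OIR values (1768, 1341 and 1284 CPM) lay above the controls (1235, 1262 and 1236 CPM), with a log2 fold change of 0.21 (SE 0.17, adjusted p = 0.700).

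**Figure D4:**
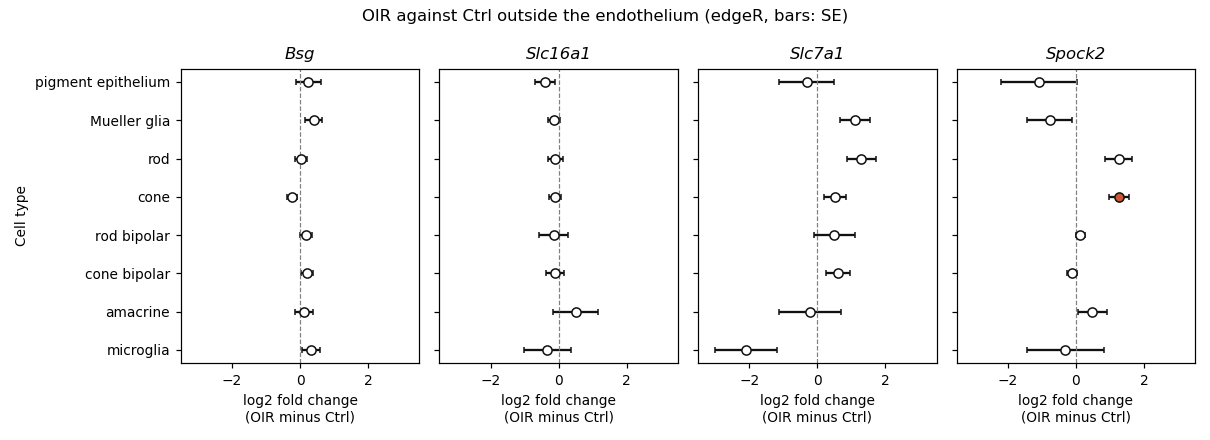
Log2 fold change (OIR minus Ctrl) of Bsg, Slc16a1, Slc7a1 and Spock2 in the 8 cell types tested, from edgeR, with bars of 1 SE. The filled point, Spock2 in cones at 1.28, is the one that was called, and Bsg lies between -0.23 and 0.40 in all 8 types.

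Slc16a1 also passed in none of the 8 types, with log2 fold changes of -0.10 (SE 0.22) in rods, -0.10 (SE 0.18) in cones and -0.13 (SE 0.18) in Mueller glia. In pigment epithelium it was at 765, 1082 and 767 CPM in controls and 717, 684 and 663 CPM in OIR. The groups did not overlap there, and the log2 fold change was -0.41 (SE 0.30, adjusted p = 0.983). Slc7a5 in pigment epithelium did not overlap either, at 197, 80.6 and 95.9 CPM in controls and 58.1, 57.0 and 49.9 CPM in OIR, on 3 to 19 UMIs per sample (log2 fold change -1.21, SE 0.52, adjusted p = 0.983).

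Slc39a10, Abcg2 and Mfsd2a were not called in any of the 8 types. Slc39a10 in cone bipolar cells was at 13.6, 18.7 and 17.7 CPM in controls and 18.6, 26.5 and 30.2 CPM in OIR, with overlap (log2 fold change 0.59, SE 0.24, adjusted p = 0.334). In Mueller glia the log2 fold change was 0.25 (SE 0.15, adjusted p = 0.479) for Abcg2 and -0.35 (SE 0.42, adjusted p = 0.761) for Mfsd2a. Slco1a4 in cone bipolar cells was called lower with the replicate block (log2 fold change -5.72, adjusted p = 0.0198), but 23 of its 24 UMIs came from control replicate 1 and 1 from control replicate 3. Without the block its adjusted p was 0.0924. The 9 endothelial markers summed to 104.5, 104 and 77.6 CPM in control and 82.3, 85.1 and 59.3 CPM in OIR cone bipolar cells, and their part was not tested.

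Among the 38 other genes of the barrier, 287 of 304 pairs of gene and type could be fitted and 144 passed the filter, and 7 pairs were called higher and 4 lower in OIR. With the replicate block 20 pairs were called. In rods the block added the zinc exporter Slc30a1 (0.46, SE 0.11, adjusted p = 0.0279) and Slc39a14, a metal importer (-1.06, SE 0.30, adjusted p = 0.0437). In cone bipolar cells it added Slc2a1 (0.69, adjusted p = 0.00582), Slc6a6 (-0.68, adjusted p = 0.000306), the iron exporter Slc40a1 (-1.02, adjusted p = 0.00888) and Slc38a3 (-0.46, adjusted p = 0.0487). Slc16a3, which encodes the lactate exporter MCT4, was at 42.9, 52.0 and 49.1 CPM in control and 142, 158 and 98.1 CPM in OIR cone bipolar cells (log2 fold change 1.46, SE 0.18, adjusted p = 0.00385), and it was called in all 15 alternatives. In rod bipolar cells Slc16a3 was at 42.4, 65.3 and 79.0 CPM in controls and 156, 145 and 104 CPM in OIR (1.18, SE 0.22, adjusted p = 0.00983). That call was lost in 2 fits with 1 sample left out. Slc2a1, the glucose carrier GLUT1, rose in rod bipolar cells from 49.7, 28 and 43.5 CPM to 140, 105 and 70.1 CPM (1.32, SE 0.26, adjusted p = 0.0139). Slc16a7, which encodes the lactate carrier MCT2, fell in cone bipolar cells from 63.6, 53.7 and 54.0 CPM to 32.4, 34.7 and 35.2 CPM (-0.81, SE 0.16, adjusted p = 0.0325). That call was lost in 5 fits with 1 sample left out and in 1 other alternative. Slc16a7 was also among the leading genes of 1 cone bipolar cluster, which held 21.5% of control and 14.6% of OIR cone bipolar cells.

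Slco1c1, the thyroxine carrier, fell in Mueller glia. It was at 8.42, 14.1 and 21.8 CPM in controls, on 50, 38 and 38 UMIs, and at 0.874, 0.284 and 0 CPM in OIR, on 7, 1 and 0 UMIs. The log2 fold change was -4.72 (SE 0.60, adjusted p = 0.00603), and the gene was called in all 15 alternatives. The 9 endothelial markers summed to 1042, 1215 and 1060 CPM in OIR Mueller glia and 1008, 949 and 886 CPM in control Mueller glia, and their part in the result was not tested. Slc7a2, another arginine carrier, fell in Mueller glia from 65.7, 54.1 and 50.5 CPM to 34.3, 31.2 and 32.1 CPM (-0.87, SE 0.15, adjusted p = 0.0202). The Slc7a2 call was lost in 4 fits with 1 sample left out.

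In rods Slc3a2, the heavy chain that pairs with Slc7a5, rose from 205.5, 128 and 160.5 CPM to 291, 342 and 336 CPM (0.81, SE 0.17, adjusted p = 0.0456), and the glutamine carrier Slc38a3 fell from 148, 159 and 141 CPM to 112, 121 and 119 CPM (-0.51, SE 0.10, adjusted p = 0.0384). Slc16a8, the lactate carrier MCT3 that is known from the pigment epithelium, was called higher in rods (2.67, SE 0.46, adjusted p = 0.0227) and in cones (2.69, SE 0.53, adjusted p = 0.0146). Its levels there were low, at 14.3, 31.7 and 14.2 CPM in OIR rods and 5.43, 1.88 and 1.81 CPM in control rods. The cone call rests on 18, 36 and 12 UMIs in OIR and 11, 2 and 0 UMIs in controls. The 7 pigment epithelium markers moved with Slc16a8, at 33.7, 71.8 and 62.1 CPM in OIR rods and 27.2, 32.9 and 28.7 CPM in control rods. In cones these markers were at 15.3, 27.9 and 18.8 CPM in OIR and 10.0, 14.8 and 13.0 CPM in controls. Their part in either result was not tested. Plvap was called in rod bipolar cells (2.38, SE 0.57, adjusted p = 0.0421) at 7.56 CPM or less, below the filter on low counts. All OIR samples but only 1 control carried Y-linked RNA, and with a term for sex the 3 rod calls were lost (adjusted p = 0.298 for Slc3a2, 0.215 for Slc38a3 and 0.225 for Slc16a8), as were Slc2a1 (0.097) and Plvap (0.131) in rod bipolar cells. With 1 sample left out, the rod calls were lost in 5 fits for Slc3a2, 4 for Slc38a3 and 4 for Slc16a8. The same held in 2 fits for Slc16a8 in cones, and in rod bipolar cells in 2 for Slc2a1 and 5 for Plvap. Among the alternatives that kept every sample number or left out more than 1, Plvap was lost in 5 and Slc38a3 in 2, the sex term included.

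**Figure D5:**
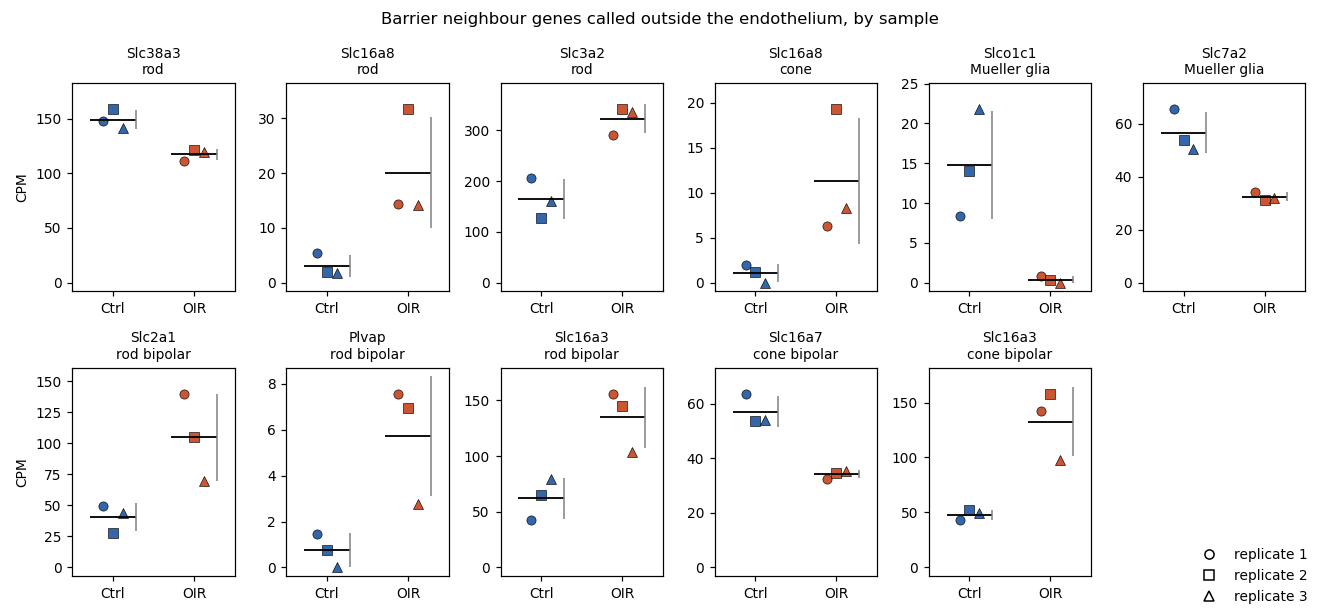
CPM by sample of the 11 pairs of barrier gene and cell type that were called outside the endothelium, on linear axes, with symbols for replicates, lines for group means and grey bars of 1 SD stopped at 0. The groups overlap in none of the 11 panels, and Slco1c1 in Mueller glia is at 0.874 CPM or less in OIR.

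By count, the 10 genes had a median log2 fold change between -0.41 (pigment epithelium) and 0.06 (Mueller glia) in the 8 types tested. The median of all genes that passed the count filter lay between -0.02 and 0.01. The medians of the 10 genes and of the other barrier genes include genes under that filter, so the sets are unlike and no shift is read. In pigment epithelium 3 of the 9 fitted members passed it. The 38 other barrier genes had medians between -0.25 (rods) and 0.34 (amacrine cells).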

How the data were processed

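Single-cell 3' libraries were made from 6 retinal samples. The authors deposited raw UMI counts, unnormalized, for each gene in each barcode that had passed their cell calling. The methods name Cell Ranger, per the labels the build was mm10, and the matrix headers give software version 3.1.0. Totals per sample limit precision, and intervals and limits of 3 counts cover counting error only.

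Barcodes with 500 to 5000 genes and at most 20% mitochondrial counts were kept. Seurat 5.3.0 in R 4.3.3 integrated the groups (canonical correlation analysis, 2000 genes, 15 components, k = 20, resolution 0.5), and all 10 members were among the integration genes. Clusters were named from marker lists, and 1405 cells stayed unnamed (3 clusters, led by lens, leukocyte or, in 16 cells, cone genes). The doublet caller Scrublet found 165 (OIR replicate 1) and 324 (control replicate 1) doublets at its own threshold but 0 in the other samples, so removal was only an alternative.

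Raw counts were summed per sample and cell type. CPM is of that sum. edgeR 4.0.16 (TMM, filterByExpr, quasi-likelihood test, Benjamini-Hochberg adjustment) compared the groups, and members and barrier genes under the filter were fitted beside the rest. DESeq2 1.42.0 was an alternative, and figures and sums used Python 3.11.15. The test was tried on simulated counts first.

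Labels give groups the same replicate numbers. Deviations of same-numbered samples correlated above 0.1 for every pair in rods (0.293 to 0.493), cone bipolar cells (0.116 to 0.348) and pigment epithelium (0.121 to 0.297), and blocked values are given there where they change a call. The study calls the samples biological replicates, and p-values measure the spread between these pools.

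The members, the marker lists and the 38 barrier genes were chosen with earlier results of these data known. Named are the 10 members, barrier genes that were called or highest of their list in control endothelium, and the 5 genes most like Bsg.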

Additional observations from a re-analysis of the deposited data

Results flagged for a closer look

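Spock2, Slc7a1, Bsg and, among the other barrier genes, Slc38a3 were flagged for opposite directions between cell types. Every OIR sample lay above every control in some types and below every control in others. The differences of these genes between cell types were not tested, and the endothelial contrast had been used to choose the first 3 genes. How many of all genes meet this rule was not counted, so the flag does not set these genes apart. Non-overlap within a type was common among genes that passed the count filter. In rods 22.6% of them had OIR above all controls and 4.53% below, and in endothelial cells 5.95% and 9.07%.

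Spock2 was higher in OIR rods and cones and lower in OIR endothelial cells, and the fitted log2 fold changes spanned 4.80. Slc7a1 was higher in rods, cones, Mueller glia and cone bipolar cells and lower in endothelial cells and microglia, with a span of 3.39. The low end of that span is the microglia fit (-2.10), which was under the filter on low counts. It rests on 4, 0 and 0 UMIs in OIR and 12, 2 and 1 UMIs in controls. Bsg was higher in cone bipolar cells and lower in endothelial cells, with a span of 4.48. Slc38a3 was higher in amacrine cells and lower in rods and endothelial cells, with a span of 2.88. Of these directions outside the endothelium, only Spock2 in cones and Slc38a3 in rods were called, and the rest are non-overlap of samples alone.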

How the results depend on the processing

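In endothelial cells, 9 or 10 of the 10 genes had a negative fitted log2 fold change under all 17 alternatives. The genes were chosen on this contrast and the fits share most of their cells, so nothing is read from that count. Abcg2 (-0.12) was the gene that turned, to 0.10 with DESeq2 and 1.37 with replicates 2 and 3 alone, and it ranged from -1.37 to 0.67 with 1 sample left out. Bsg in cone bipolar cells (0.21) ranged from -0.01 to 0.30 with 1 sample left out. Outside the endothelium, 1 pair of member and cell type was called. The number was 3 without the filter on low counts, 4 with the replicate block, 3 with a term for sex, 4 with replicates 2 and 3 alone, 0 when clustering left out the members, and 0 to 4 with 1 sample left out (4 without control replicate 1, 0 without control replicate 2 or 3 or OIR replicate 2 or 3). Spock2 in cones had been called and was lost with DESeq2, which called Spock2 in rods, and with the sex term, where Slco1a4 in rods and cone bipolar cells and Spock2 in Mueller glia were called lower. Pairs of other barrier genes called numbered 11, and 18 without the filter, 20 with the replicate block, 18 with replicates 2 and 3 alone, and 2 to 10 with 1 sample left out (2 without OIR replicate 2, 4 without control replicate 2, 5 without control replicate 3, 7 without OIR replicate 3). The cause was not tested. Highest in control endothelial cells were 10 members by CPM and 9 by thinned cells. Fits without a sample rest on 2 samples in 1 group. Depth limits OIR replicates 2 and 3, whose endothelial sums hold 8480 and 5362 UMIs.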

Other observations

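Slc16a3, which encodes MCT4, another lactate carrier that basigin escorts, was at 0 to 19.4 CPM in endothelial cells. There Slc16a1 was at 790 to 1388 CPM in controls. In cone bipolar cells Slc16a7 was at 32.4 to 63.6 CPM and Slc16a3 at 42.9 to 158 CPM.

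The share of the 10 genes' endothelial UMIs that came from Bsg was 64.5%, 69.3% and 70.9% in the control samples and 43.7%, 11.1% and 66.7% in the OIR samples, the last on 6 UMIs. In OIR replicate 3, 2 of the 4 endothelial cells had a UMI of none of the 10 genes, and none of its 4 cells carried 3 of the 9 endothelial markers.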
